A study of Mus musculus with 16 samples.

Results

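The 10 genes described here encode transcription factors that are known for building and maintaining the endothelial lineage. They were chosen by symbol, as 10 of the 47729 genes in the count tables, and all 10 had a row in every table. They are the zinc finger factor Gata4, the SoxF factors Sox7, Sox17 and Sox18, the ETS factors Erg and Fli1, the basic helix-loop-helix factors Tal1 and Lyl1, the nuclear receptor Nr2f2 and the MADS box factor Mef2c. Their level was measured in 4 cell types of the mouse liver, and the libraries labelled KO were compared with those labelled WT within each cell type.

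RNA of endothelial cells (ECs), hepatic stellate cells (HSCs), Kupffer cells and hepatocytes was sequenced in 16 libraries, with 2 libraries for each cell type and label (n = 2 per group). The animals of the KO groups carried floxed alleles of Zeb2, with exon 7 between the loxP sites, a Cdh5-CreERT2 transgene and an eGFP reporter that Cre switches on. Cdh5 drives Cre in endothelium as a whole, so that deletion is not limited to the sinusoids of the liver. The WT groups were littermates without Cre, and both groups received tamoxifen at 2 mg per day for 5 days, so that the drug was shared and Cre was not. Male mice of 8 weeks were used, and RNA was taken 2 weeks after tamoxifen from livers with no further challenge. HSCs were sorted by their ultraviolet autofluorescence, Kupffer cells by F4/80 and ECs by the pan-endothelial marker Meca32, while hepatocytes were collected by centrifugation. The labels do not say which libraries came from separate animals, and 1 liver may have given several of the cell types, so that the p-values measure the spread between these libraries.

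The libraries held from 12872706 to 15690506 reads on genes. Levels are given as CPM, a gene's count scaled to a common total of reads on genes. A level of 3 counts, the floor used here, was worth 0.191 to 0.233 CPM depending on the library, a limit that concerns counting error alone. The targeted gene was examined first as a check of the labels. Zeb2 (ENSMUSG00000026872, chromosome 2 from 44983632 to 45117395 on the reverse strand of GRCm38) had 106 and 106 CPM under the WT label and 199 and 130.1 CPM under the KO label in ECs, so that both EC libraries labelled KO were above both labelled WT (log2 fold change 0.62, SE 0.24, adjusted p = 0.303). This count covers all exons of the gene and does not measure the floxed exon on its own. Groups are therefore called by their labels throughout. The authors report efficient deletion of Zeb2 in endothelium, by its mRNA and by the share of recombined ECs, which these counts do not measure. The cell types carried their own markers: the summed level of 10 sinusoidal endothelial markers was between 32983 and 46358 CPM in ECs and at most 2944 CPM elsewhere. Every one of these markers had counts in all 16 libraries, so that none was absent outside ECs.

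As background, these factors act as a network. ETS factors bind the enhancers of nearly all genes that define endothelium, often beside sites for SoxF, GATA and basic helix-loop-helix factors, and Mef2c and Nr2f2 add programmes for vessel growth and for venous identity. In the liver, Gata4 is known for the sinusoidal form of endothelium, whose cells are fenestrated and lack a full basement membrane. Several of the factors also work in other lineages: Fli1, Tal1 and Lyl1 in blood cells, Gata4 and Nr2f2 in mesenchymal cells, and Mef2c in muscle and neurons.

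All 10 factors were detected in every EC library, and ECs held the highest mean of the 4 cell types for 9 of them. The exception was Lyl1, with 13.1 ± 3.81 CPM (mean ± SD, n = 4) in ECs and 14.2 ± 4.53 CPM in Kupffer cells. Levels of different genes were compared per kilobase of annotated exons, which counts the exons of all isoforms and so lowers genes with many of them. On that scale Sox18 led in ECs with 155 ± 69.4 CPM per kb, ahead of Gata4 with 112 ± 25.1 and Sox7 with 88.3 ± 24.7 CPM per kb, and these neighbours overlapped within 1 SD. Sox17 with 41.9 ± 10.0, Fli1 with 34.5 ± 7.11 and Erg with 23.5 ± 6.13 CPM per kb followed, again with neighbours overlapping. Nr2f2 had 15.5 ± 1.77, Mef2c 11.7 ± 3.05 and Lyl1 7.29 ± 2.12 CPM per kb, each overlapping with the next. Tal1 was the lowest with 3.76 ± 0.942 CPM per kb, below Lyl1 by more than these SDs.

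**Figure D1:**
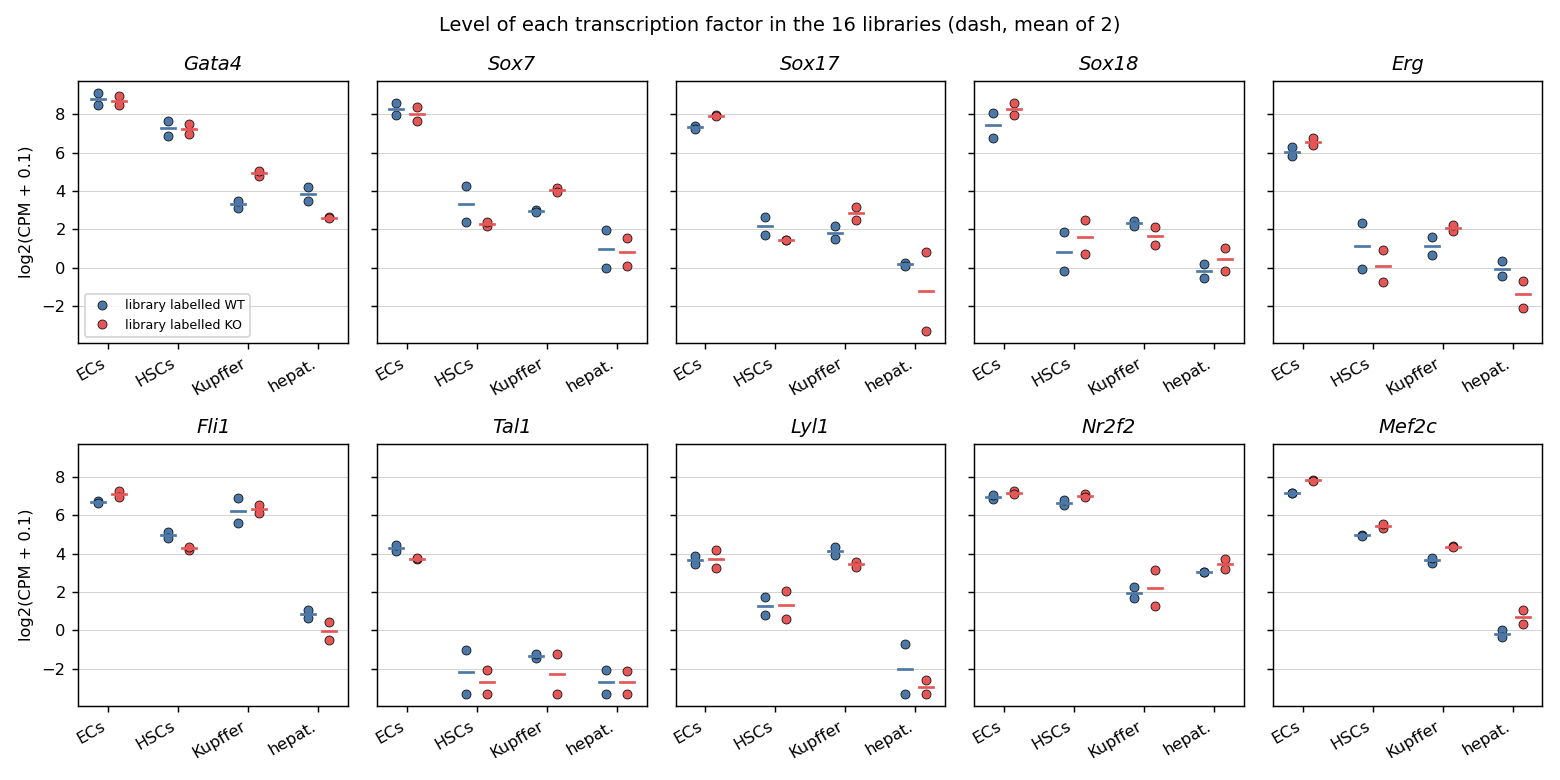
Level of the 10 factors in each of the 16 libraries, as log2 of CPM plus 0.1, by cell type (x axis) and label (colour), with a dash at the mean of 2 libraries. ECs sit highest in all panels but that of Lyl1, where Kupffer cells overlap with ECs, while Nr2f2 lies as high in HSCs as in ECs and Fli1 nearly as high in Kupffer cells.

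Differences between cell types were tested over the 16 libraries with edgeR's quasi-likelihood test, with the mean of both labels in each cell type and a Benjamini-Hochberg adjusted p under 0.05 as the threshold. Of the 10 factors, 9 were higher in ECs than in HSCs, where 13.3% of 17214 genes tested were higher in ECs. Against Kupffer cells 8 were higher in ECs, with 17.5% of all genes. Against hepatocytes all 10 were higher in ECs, with 33.2% of all genes. None of the 10 was lower in ECs past the threshold, where 12.8%, 14.5% and 25.5% of all genes were, in the same order. The 3 tests share the EC libraries.

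Among the other cell types, HSCs exceeded Kupffer cells for Nr2f2, Gata4 and Mef2c (3 of 10, with 22.3% of all genes), and Kupffer cells exceeded HSCs for Lyl1 and Fli1 (2 of 10, with 20.6%). HSCs exceeded hepatocytes for Mef2c, Lyl1, Fli1, Gata4 and Nr2f2 (5 of 10, with 34.0% of all genes) and were lower for none (24.4% of all genes). Kupffer cells exceeded hepatocytes for Lyl1, Fli1, Mef2c, Sox17 and Sox7 (5 of 10, with 29.3%) and were lower for Nr2f2 (1 of 10, with 26.3%). Of these, the calls for Sox17 (log2 fold change 1.39, SE 0.54, adjusted p = 0.0458) and Sox7 (log2 fold change 1.38, SE 0.51, adjusted p = 0.0356) were not made in the libraries labelled WT alone (adjusted p = 0.446 and 0.441). That for Sox17 was also lost without the Kupffer cell library labelled WT 39 or KO 27 or the hepatocyte library labelled WT 29 or WT 33, with adjusted p between 0.0604 and 0.0638. The call for Sox7 was lost without the Kupffer cell library labelled KO 43 or the hepatocyte library labelled WT 29 or KO 41, with adjusted p between 0.0527 and 0.0682. The call for Lyl1 in HSCs against hepatocytes was not made in the libraries labelled WT alone (adjusted p = 0.0963). Erg did not pass for Kupffer cells against hepatocytes (log2 fold change 1.41, SE 0.61, adjusted p = 0.0675). It did pass there with DESeq2 (adjusted p = 0.024), and in edgeR with RLE in place of TMM scaling (adjusted p = 0.049). Erg also passed with plain library totals (adjusted p = 0.00386) and with no filter on low counts (adjusted p = 0.000426), but not in the libraries labelled WT alone.

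Gata4 (ENSMUSG00000021944, chromosome 14 from 63198922 to 63271692 on the reverse strand) is a zinc finger factor of heart, gut and liver mesenchyme as well as of sinusoidal endothelium. ECs had 551 and 359 CPM under the WT label and 354 and 489.9 CPM under the KO label, and the labels overlapped. In HSCs it had 116 and 201 CPM under the WT label and 124 and 176 CPM under the KO label, so that every HSC library lay under every EC library and above all libraries of the other cell types. The level in ECs exceeded that in HSCs 2.41-fold (log2 fold change 1.27, SE 0.26, adjusted p = 0.00341), and HSCs exceeded Kupffer cells 8.55-fold (log2 fold change 3.10, SE 0.28, adjusted p = 5.24e-06). Kupffer cells had 8.65 and 11.0 CPM under the WT label and 27.6 and 33.1 CPM under the KO label, with both libraries labelled KO above both labelled WT. Hepatocytes had 18.5 and 11.0 CPM under the WT label and 6.19 and 5.80 CPM under the KO label, with the opposite order of the labels. Kupffer cells and hepatocytes were not shown to differ (log2 fold change -0.18, SE 0.26, adjusted p = 0.608), and the sign of that difference was not fixed. It turned in 14 of 16 fits that left out 1 library, with values from -0.24 to 0.25. With plain library totals the difference was 0.87 (adjusted p = 0.0113). In the libraries labelled WT alone it was -1.57 (adjusted p = 0.00553), since the labels stood in opposite order in these cell types.

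The SoxF factors share the HMG box that binds DNA. Sox7 (ENSMUSG00000063060, chromosome 14 from 63943673 to 63950732 on the forward strand) and Sox17 (ENSMUSG00000025902, chromosome 1 from 4490931 to 4497354 on the reverse strand) act in vascular development, Sox17 also in arterial identity, and Sox18 (ENSMUSG00000046470, chromosome 2 from 181669836 to 181671640 on the reverse strand) is known for the first steps of lymphatic vessels. Their coding sequences were compared because a read that lies wholly in a stretch that relatives share cannot be assigned to 1 gene. Whether any read lay wholly in such a stretch was not tested. The longest run shared by any 2 of the 10 coding sequences belonged to Sox17 and Sox18 and was 29 bases, written here 5′ to 3′ in capitals throughout, since all of it is shared.
Sox17, chr1:4492611-4492639 (reverse strand): GAGAAGCGGCCCTTCGTGGAAGAGGCCGA
Sox18, chr2:181670939-181670967 (reverse strand): GAGAAGCGGCCCTTCGTGGAAGAGGCCGA
Around this run, 74 of 90 bases were identical between Sox17 and Sox18. Sox7 shared at most 22 bases in a row with Sox17 and 20 with Sox18.

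In ECs, Sox7 had 385 and 250.1 CPM under the WT label and 202 and 328 CPM under the KO label. Sox17 had 167 and 151 CPM under the WT label and 245 and 237 CPM under the KO label there, so that its replicates lay close together and the labels did not overlap. For Sox18 the EC values were 108 and 269.8 CPM under the WT label and 382 and 247 CPM under the KO label, with the lowest and the highest library far apart and the labels overlapping. Among EC libraries labelled WT, the one numbered 34 was the higher for Sox7 and the lower for Sox18. The library labelled KO 6 was the lowest of the 4 for Sox7 and the highest for Sox18. The sum over the 3 genes differed much less between replicates, with 665.5 ± 7.60 CPM (SD, n = 2) under the WT label and 821 ± 11.5 CPM under the KO label. No test was made of this sum. Of all genes tested in ECs, 24.2% had both libraries labelled KO above both labelled WT. Per kilobase, Sox18 made up between 30.5% and 67.7% of the 3 genes in the 4 EC libraries, Sox7 between 17.6% and 53.5%, and Sox17 between 11.6% and 16.5%. The make-up was thus as different between replicates as between labels. An antisense transcript, Gm37587, covers 16.8% of the exon bases of Sox17 and had a mean of 4.72 CPM in ECs. The strand setting of the counting is not given in the sources used here, and the reads of the overlap cannot be told apart without it.

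**Figure D2:**
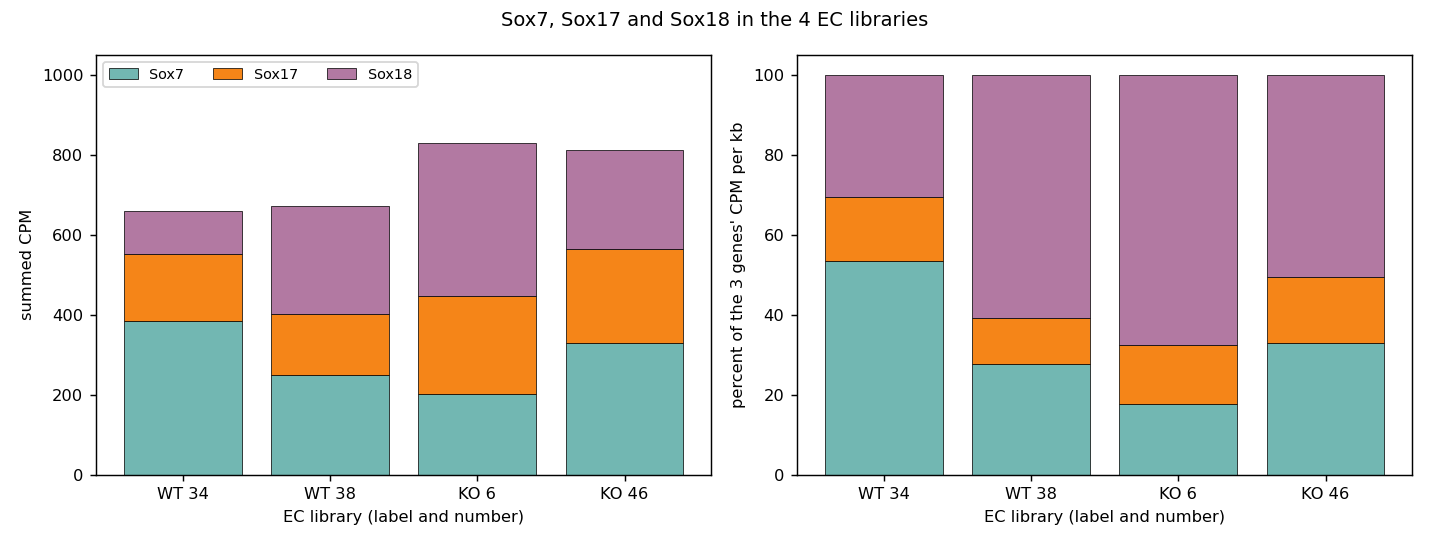
Sox7, Sox17 and Sox18 in the 4 EC libraries, as summed CPM (left) and as percent of the 3 genes' CPM per kilobase (right), with 1 bar for each library. The sums, which were not tested, pair by label, at 660 and 671 CPM under WT and 829 and 812 CPM under KO. The share of Sox18 runs from 30.5% to 67.7% without following the label.

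Outside ECs all 3 SoxF genes were low. In HSCs, Sox7 had 19.1 and 5.12 CPM under the WT label and 4.36 and 5.05 CPM under the KO label, Sox17 had between 2.56 and 6.02 CPM and Sox18 between 0.768 and 5.46 CPM. The HSC library labelled WT 32 was the highest of the 4 for Sox7 and Sox17 and the lowest for Sox18. Kupffer cells had 8.05 and 7.44 CPM under the WT label and 17.4 and 15.0 CPM under the KO label for Sox7, between 2.68 and 8.90 CPM for Sox17 and between 2.17 and 5.23 CPM for Sox18. Hepatocytes had at most 3.75 CPM for Sox7, 1.68 CPM for Sox17 and 1.95 CPM for Sox18. ECs exceeded HSCs 32.6-fold for Sox7 (adjusted p = 3.45e-05), 47.8-fold for Sox17 (adjusted p = 1.83e-05) and 75.0-fold for Sox18 (adjusted p = 1.3e-05). Against Kupffer cells the excess was 20.9-fold, 31.4-fold and 48.7-fold, in the same order. HSCs and Kupffer cells were not shown to differ for any of the 3, with adjusted p between 0.300 and 0.358.

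Erg (ENSMUSG00000040732, chromosome 16 from 95359169 to 95586593 on the reverse strand) and Fli1 (ENSMUSG00000016087, chromosome 9 from 32422204 to 32542861 on the reverse strand) belong to 1 subgroup of the ETS family, and Erg is widely used as a marker of endothelial nuclei. Their coding sequences are the most alike of the 10 around the longest shared run, with 80 of 90 bases identical, and both stretches code for part of the ETS domain that binds DNA. The 90 bases are shown 5′ to 3′ with the shared run of 22 bases in capitals (GRCm38, both on the reverse strand). They are shown since this pair had the most identical bases around its run and yet differed in where it was expressed.
Erg, chr16:95361130-95361219: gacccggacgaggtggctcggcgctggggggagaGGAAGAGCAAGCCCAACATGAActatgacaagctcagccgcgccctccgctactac
Fli1, chr9:32424109-32424198: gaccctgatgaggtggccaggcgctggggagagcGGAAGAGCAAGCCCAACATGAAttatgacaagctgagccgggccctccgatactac
Each of these stretches lies within 1 exon.

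Erg and Fli1 were distributed differently over the cell types. ECs had 77.0 and 57.0 CPM under the WT label and 83.4 and 109 CPM under the KO label of Erg. For Fli1 they had 106 and 98.2 CPM under the WT label and 154 and 123 CPM under the KO label, and for both genes the labels did not overlap. Kupffer cells had 48.2 and 117 CPM under the WT label and 92.7 and 68.6 CPM under the KO label of Fli1 but between 1.48 and 4.60 CPM of Erg. Fli1 was thus not shown to differ between ECs and Kupffer cells (log2 fold change 0.25, SE 0.24, adjusted p = 0.470), and without the Kupffer cell library labelled WT 31 the difference changed sign to -0.01. Erg was 21.6-fold higher in ECs than in Kupffer cells (log2 fold change 4.43, SE 0.58, adjusted p = 0.000104). In HSCs, Fli1 had 34.9 and 28.0 CPM under the WT label and 18.4 and 19.9 CPM under the KO label and was 4.07-fold lower than in ECs (adjusted p = 8.7e-05). Erg in HSCs had 4.99 and 0.832 CPM under the WT label and 0.484 and 1.80 CPM under the KO label, with the library labelled WT 32 the highest. Per kilobase, Erg made up 39.6% ± 3.79 of the 2 genes in ECs labelled WT and 41.2% ± 8.35 in those labelled KO (SD, n = 2), against 2.72% ± 0.377 and 5.09% ± 1.74 in Kupffer cells. Hepatocytes had at most 1.98 CPM of Fli1 and 1.16 CPM of Erg.

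Tal1 (ENSMUSG00000028717, chromosome 4 from 115056426 to 115071755 on the forward strand) and Lyl1 (ENSMUSG00000034041, chromosome 8 from 84701457 to 84704715 on the forward strand) are close relatives that dimerise with E proteins and act in blood and vessel formation. Around their longest shared run of 14 bases, which codes for part of the basic helix-loop-helix domain, 58 of 90 bases were identical. The 90 bases of each are shown 5′ to 3′, with the run in capitals, as a pair that differs more than Erg and Fli1 do. Each is coding sequence joined over an intron, so that the coordinates span more than 90 bases (GRCm38, forward strand).
Tal1, chr4:115064755-115068357: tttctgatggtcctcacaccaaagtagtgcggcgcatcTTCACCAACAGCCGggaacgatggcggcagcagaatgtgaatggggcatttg
Lyl1, chr8:84703173-84703978: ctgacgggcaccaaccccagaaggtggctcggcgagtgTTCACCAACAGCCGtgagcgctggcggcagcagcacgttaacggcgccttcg

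ECs had 17.5 and 21.8 CPM under the WT label and 13.0 and 13.4 CPM under the KO label of Tal1, and both libraries labelled KO lay under both labelled WT. Its 912 counts in the 4 EC libraries stood against 14 in Kupffer cells, 8 in HSCs and 4 in hepatocytes. By CPM this was 123 times the HSC level, with an exact 95% counting interval from 62.0 to 285, and 70.1 times the Kupffer cell level, with an interval from 41.5 to 129. Against the hepatocyte level it was 247 times, with an interval from 96.3 to 910. These intervals cover counting error only, and the ratios rest on plain CPM. The fitted fold changes of Tal1 were 107 against HSCs, 56.1 against Kupffer cells and 88.6 against hepatocytes. They include the fit's scaling of the libraries and depend on the prior count of the test. All 3 differences passed the threshold, with adjusted p between 0.000572 and 0.00150.

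Lyl1 had 10.8 and 14.4 CPM under the WT label and 17.9 and 9.38 CPM under the KO label in ECs. Kupffer cells had 15.2 and 20.1 CPM under the WT label and 11.7 and 9.81 CPM under the KO label, and ECs and Kupffer cells were not shown to differ (log2 fold change -0.39, SE 0.59, adjusted p = 0.664). HSCs had 3.27 and 1.66 CPM under the WT label and 1.38 and 4.08 CPM under the KO label, which was 4.17-fold under ECs (adjusted p = 0.0282). This last call was lost when the EC library labelled WT 34, WT 38 or KO 6 or the HSC library labelled WT 32, WT 40 or KO 8 was left out, with adjusted p between 0.0571 and 0.114, and in the libraries labelled WT alone (adjusted p = 0.154). Hepatocytes had 9 counts of Lyl1 in 4 libraries. Tal1 and Lyl1 thus differed in Kupffer cells, where Tal1 made up at most 1.15% of the 2 genes per kilobase in each library, against 23.0% to 40.0% in ECs.

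Nr2f2 (ENSMUSG00000030551, chromosome 7 from 70351944 to 70366735 on the reverse strand), known as COUP-TFII, is a nuclear receptor of venous endothelium and of many mesenchymal cells. ECs had 114 and 135 CPM under the WT label and 151 and 136 CPM under the KO label. HSCs had 92.1 and 109.7 CPM under the WT label and 136 and 122 CPM under the KO label, within or just under the EC range, and the difference was the smallest of the 10 (log2 fold change -0.02, SE 0.30, adjusted p = 0.992). It was 0.23 with plain library totals and 0.04 in the libraries labelled WT alone, so that its sign was not fixed. Kupffer cells had 3.09 and 4.70 CPM under the WT label and 8.84 and 2.30 CPM under the KO label, and hepatocytes had 8.03 and 8.25 CPM under the WT label and 8.90 and 12.9 CPM under the KO label. Nr2f2 was the one factor of the 10 that was higher in hepatocytes than in Kupffer cells past the threshold (4.25-fold, adjusted p = 0.000174). ECs exceeded Kupffer cells 23.1-fold (adjusted p = 2.63e-06) and hepatocytes 5.44-fold (adjusted p = 3.89e-05). An antisense transcript, B130024G19Rik, covers 7.46% of the exon bases of Nr2f2, with a mean of 16.5 CPM in ECs and 36.5 CPM in HSCs.

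Mef2c (ENSMUSG00000005583, chromosome 13 from 83504034 to 83667080 on the forward strand) is held in check by class IIa histone deacetylases and controls vessel growth. It had 142 and 143 CPM under the WT label and 228 and 223 CPM under the KO label in ECs, where the replicates lay within a few CPM of each other and the labels were well apart. HSCs had 31.2 and 30.6 CPM under the WT label and 40.7 and 46.5 CPM under the KO label, and Kupffer cells had 11.3 and 13.7 CPM under the WT label and 21.0 and 20.0 CPM under the KO label. Hepatocytes had 0.892 and 0.682 CPM under the WT label and 1.16 and 1.95 CPM under the KO label. The 4 cell types formed a graded series, and each step passed the threshold: ECs over HSCs by 4.11-fold (adjusted p = 7.5e-06), HSCs over Kupffer cells by 2.19-fold (adjusted p = 0.000374) and Kupffer cells over hepatocytes by 6.91-fold (adjusted p = 4.88e-07).

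The levels outside ECs were set beside those of 20 endothelial marker genes measured in the same libraries, each as a percent of its own mean CPM in ECs. In HSCs the 20 markers had a median of 2.28% and ranged from 1.26% to 39.4%, with Eng, Ehd3 and Esam the highest. Sox7, Sox17, Sox18, Erg and Tal1 had between 0.794% and 2.88% there. Nr2f2 with 86.0% was above all 20 markers, Gata4 with 35.2% above 19, and Fli1 with 21.0%, Mef2c with 20.3% and Lyl1 with 19.8% above 18 each. The 10 Kupffer cell markers differed between HSC libraries, with 2725 and 2478 CPM in KO 20 and WT 32 against 568 and 531 CPM in KO 8 and WT 40. In the same order Lyl1 had 4.08 and 3.27 against 1.38 and 1.66 CPM, and Fli1 had 19.9 and 34.9 against 18.4 and 28.0 CPM.

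In Kupffer cells the median marker stood at 3.40%, with Cdh5 at 84.2% and Mrc1 at 40.5% the highest. Lyl1 with 108% was above all 20 markers and Fli1 with 67.9% above 19, followed by Mef2c with 8.98% above 16. The other 7 factors had between 1.41% and 4.58%. In hepatocytes the markers ranged from 0.261% to 0.899%, and Nr2f2 with 7.10%, Gata4 with 2.37%, Lyl1 with 1.10% and Fli1 with 1.09% were above all 20. The other 6 had between 0.403% and 0.751%. The value of Lyl1 in hepatocytes rests on 1 library, with 8 counts in WT 29, 0 in WT 33 and KO 25, and 1 in KO 41. Fewer cells of a type and less RNA per cell cannot be told apart in such bulk libraries. The part of RNA from ECs, or from Kupffer cells in the HSC libraries, in the low levels was not tested.

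**Figure D3:**
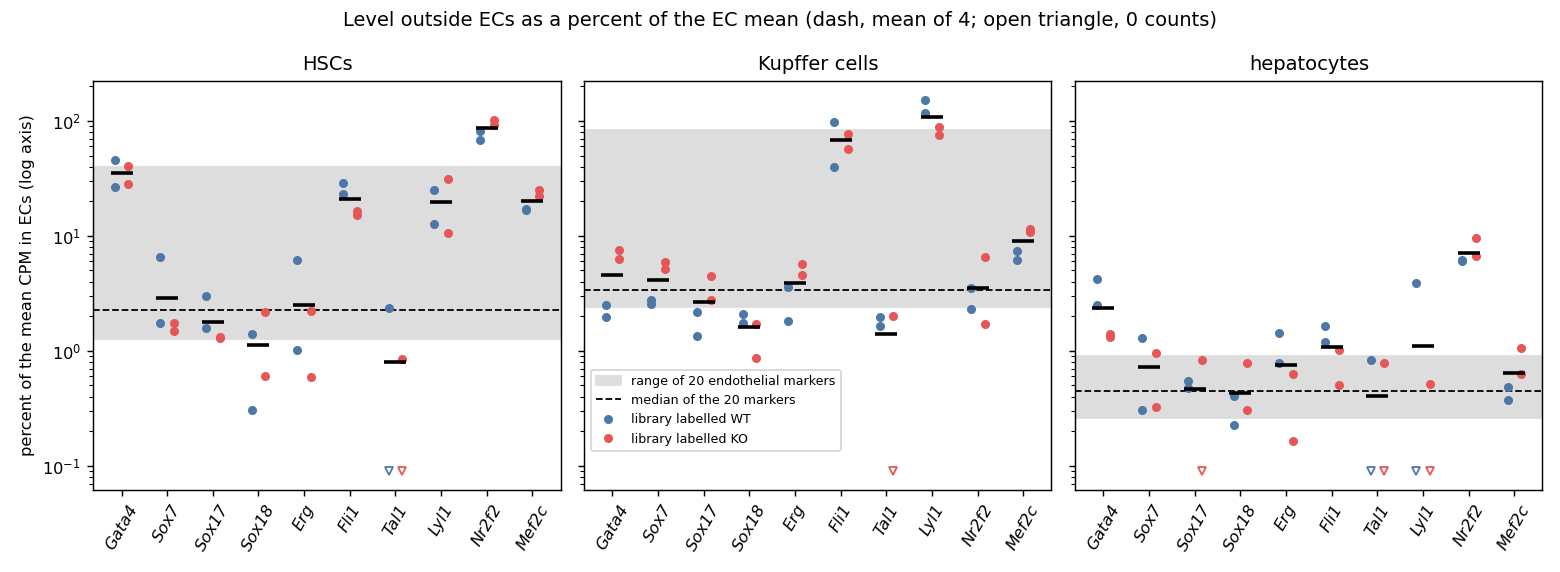
Level of each factor in HSCs, Kupffer cells and hepatocytes as a percent of its mean CPM in ECs (log axis), with 1 point for each library, a dash at the mean of 4, and the range and median of 20 endothelial markers in grey and as a dashed line. Nr2f2 at 86.0% in HSCs and Lyl1 at 108% in Kupffer cells lie above the grey band, and in hepatocytes Nr2f2 at 7.10% lies farthest above it.

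These percents rest on plain CPM, which a few very abundant transcripts lower for all other genes of a library. The TMM factors that correct for this were between 0.497 and 0.588 in hepatocytes and between 1.34 and 1.47 in ECs. For Nr2f2, the fitted excess of ECs over hepatocytes was therefore 5.44-fold while plain CPM gave 7.10% of the EC mean. With plain library totals the median of all genes moved from 0.54 to 1.85 between ECs and hepatocytes on the log2 scale, and the 10 factors kept their direction.

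The libraries labelled KO were compared with those labelled WT within each cell type. No member passed the threshold in any cell type. In ECs, where 2.08% of 14631 genes tested passed, it was 0 of 10. In HSCs, Kupffer cells and hepatocytes, where 0% of all genes passed in edgeR, it was 0 of 9, 0 of 9 and 0 of 7. Tal1 was too low to be tested outside ECs, and Erg and Lyl1 were too low in hepatocytes. DESeq2 also gave 0 in each cell type, while it called 983, 408, 72 and 32 genes in all. For 4 of the 7 members in hepatocytes DESeq2 gave no adjusted p, so that these could not pass. At an unadjusted p under 0.05 there were 2 members in ECs, where 15.0% of all genes had such a p, and 1 in each of the others, where it was 8.75% for HSCs, 5.09% for Kupffer cells and 7.11% for hepatocytes. With 2 libraries on each side, 0.333 is the smallest two-sided p of an exact permutation, and none was run.

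In ECs the 2 members were Mef2c (log2 fold change 0.66, SE 0.20, adjusted p = 0.200, unadjusted p = 0.0146) and Sox17 (log2 fold change 0.60, SE 0.21, adjusted p = 0.255, unadjusted p = 0.0258). Their levels above were 225 ± 2.94 CPM of Mef2c under KO against 142 ± 0.506 under WT, and 241 ± 5.61 CPM of Sox17 against 159 ± 11.2 (SD, n = 2). Over all settings tried, the adjusted p was between 0.073 and 0.767 for Mef2c and between 0.143 and 0.871 for Sox17. The other log2 fold changes in ECs lay between -0.57 for Tal1 and 0.73 for Sox18, with SEs from 0.20 to 0.43. The median over the 10 was 0.32, beside -0.01 over all genes tested. The labels did not overlap for Sox17, Erg, Fli1, Nr2f2 and Mef2c above and Tal1 below, which was 5 above and 1 below, where 24.2% of all genes tested were above and 24.1% below.

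In the EC libraries, markers also stood apart by label. The summed level of the 10 sinusoidal endothelial markers was 32983 to 39623 CPM under WT and 44784 to 46358 CPM under KO, with 8 of 10 higher and none past the threshold. Of the 10 endothelial markers of the other list, 4 were higher and 6 lower, with a median log2 fold change of -0.06, summed levels of 13346 to 17725 CPM under WT and 18264 to 18661 CPM under KO, and none past the threshold. The 10 hepatocyte markers were all lower under KO past the threshold, with summed levels of 12895 to 26132 CPM under WT and 2177 to 3002 CPM under KO. The 10 Kupffer cell markers summed to 554 to 874 CPM under WT and 1167 to 1228 CPM under KO, the 10 HSC markers to 1367 to 1671 against 591 to 872 CPM, and 6 B cell markers to 223 to 689.8 against 139 to 154 CPM, with none of these past the threshold. With 857 hepatocyte-enriched genes left out and the totals recomputed, the value of Mef2c was 0.62 and that of Sox17 0.56, while the number of genes called in ECs fell from 305 to 0. The part of these markers' cell types in the members' values was not tested beyond this.

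Outside ECs, Fli1 in HSCs (log2 fold change -0.73, SE 0.28, adjusted p = 0.545), Gata4 in Kupffer cells (log2 fold change 1.59, SE 0.37, adjusted p = 0.933) and Gata4 in hepatocytes (log2 fold change -1.23, SE 0.34, adjusted p = 0.700) had an unadjusted p under 0.05. In HSCs the labels did not overlap for 5 of 9 tested, with Nr2f2 and Mef2c above (20.5% of all genes) and Sox7, Sox17 and Fli1 below (19.3%). Among Kupffer cell libraries this held for 7 of 9, with Gata4, Sox7, Sox17, Erg and Mef2c above (20.5% of all genes) and Sox18 and Lyl1 below (16.1%). For hepatocytes it held for 4 of 7, with Nr2f2 and Mef2c above (16.4% of all genes) and Gata4 and Fli1 below (23.2%). Sox7 in HSCs was set apart only narrowly, with 5.12 CPM in WT 40 against 5.05 CPM in KO 20 by plain CPM. Its log2 fold change there ran from -2.06 to -0.13 when 1 library was left out. Markers of other cell types also stood apart by label in the same libraries, with no marker named here past the threshold. In Kupffer cells, 9 of 10 endothelial markers were higher under KO, with summed levels of 560.2 to 772 CPM under WT and 839.7 to 1171 CPM under KO. Of the sinusoidal markers 9 of 10 were higher there, but the sums overlapped, with 2011 to 2578 against 2517 to 2944 CPM. All 10 hepatocyte markers were also higher there, with 6394 to 9280.2 against 10406 to 12502 CPM. In hepatocytes, 10 of 10 sinusoidal markers were lower under KO, with 228 to 253 against 138 to 178 CPM. The endothelial markers were lower for 8 of 10, with overlapping sums of 81.8 to 94.5 against 48.0 to 90.3 CPM. All 10 Kupffer cell markers were lower as well, with 242 to 473 against 162 to 217 CPM, and 5 of them had an unadjusted p under 0.05. In HSCs, 9 of 10 sinusoidal markers were lower under KO, with 2618 to 2709.9 against 1962 to 2609 CPM. Of the endothelial markers 7 of 10 were lower there, while the sums overlapped, with 2922 to 3270.0 against 3176 to 3353 CPM. For HSCs all 10 hepatocyte markers were lower too, with 3512 to 8346 against 571 to 1598 CPM. In HSCs an unadjusted p under 0.05 was found for 10 hepatocyte, 5 sinusoidal and 5 endothelial markers (8.75% of all genes). In Kupffer cells it was found for 0, 1 and 2, in the same order (5.09% of all genes). In hepatocytes 1 sinusoidal and 1 endothelial marker had such a p, beside the 5 Kupffer cell markers (7.11% of all genes). The part of the markers' cell types in the members' values was not tested.

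**Figure D4:**
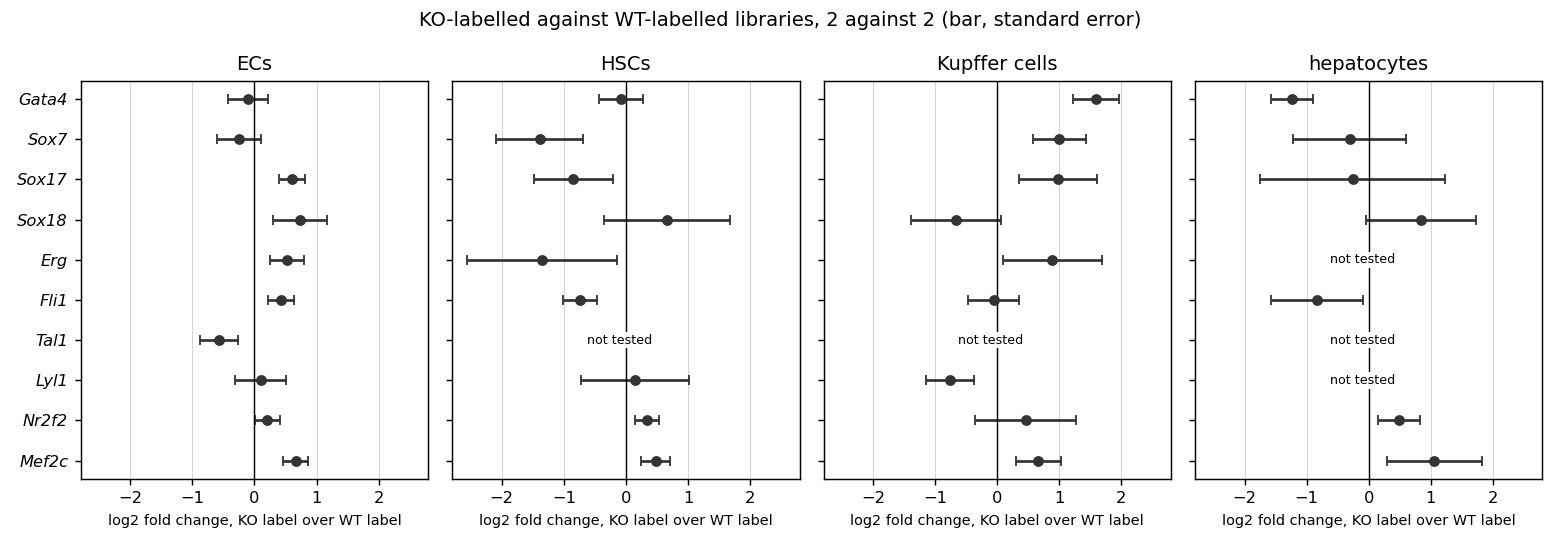
Log2 fold change of each factor between the libraries labelled KO and WT (x axis), with its standard error, in the 4 cell types. No value passed the threshold, the values in ECs lie between -0.57 and 0.73, and those of Gata4 stand at 1.59 in Kupffer cells and -1.23 in hepatocytes.

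Whether the effect of the label in ECs differed from that in the other cell types was tested as an interaction over the 16 libraries, and no member passed. Values are the effect in ECs minus that in the other cell type. The smallest p was that of Gata4 against Kupffer cells (log2 fold change -1.71, SE 0.52, adjusted p = 0.138, unadjusted p = 0.00628), where 2.07% of all genes passed. DESeq2 gave an adjusted p of 0.0263 for this difference, and over all settings it was between 0.0263 and 0.449. The EC values of Gata4 overlapped between the labels, so that the difference rests on the Kupffer cells, at 8.65 and 11.0 CPM against 27.6 and 33.1 CPM. Fli1 had the smallest p against HSCs (log2 fold change 1.17, SE 0.48, adjusted p = 0.988) and against hepatocytes (log2 fold change 1.22, SE 0.54, adjusted p = 0.516), where 0.0349% and 0.0697% of all genes passed.

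Other genes of the network were described by lists. Of 24 other endothelial transcription factors, 15 were higher in ECs than in HSCs and 5 lower, beside 13.3% and 12.8% of all genes. Against Kupffer cells 14 were higher and 0 lower (17.5% and 14.5% of all genes), and against hepatocytes 16 were higher and 3 lower (33.2% and 25.5%). The same shares apply to the lists that follow. The 3 highest in ECs were Klf2, which responds to shear stress, with 523 ± 210.1 CPM, Ets2 with 337 ± 36.4 CPM and Epas1 with 321 ± 98.3 CPM (SD, n = 4). Of 9 closest relatives of the members, 7 could be tested, and ECs were higher than HSCs for 2 and lower for 1, higher than Kupffer cells for 3 and lower for 0, and higher than hepatocytes for 4 and lower for 2. Mef2a with 135 ± 24.2 CPM, Mef2d with 39.3 ± 9.63 CPM and Nr2f6 with 11.8 ± 1.95 CPM led them. Of 14 binding partners and cofactors, 7 were higher in ECs than in HSCs and 2 lower, 8 higher than in Kupffer cells and 1 lower, and 11 higher than in hepatocytes and 0 lower, led by the E protein Tcf4 with 501 ± 62.9 CPM and the histone deacetylases Hdac7 with 136 ± 15.8 and Hdac5 with 117 ± 28.0 CPM. Of 18 vascular genes with known binding sites for these factors, 16 were higher in ECs than in HSCs, 16 than in Kupffer cells and 18 than in hepatocytes, with 0 lower in each, led by Eng with 6792 ± 1811, Cldn5 with 2714 ± 602 and Kdr with 2023 ± 353 CPM.

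Between the labels, none of the genes in these 4 lists passed the threshold within any cell type. In the test of whether the effect differed between cell types, Ets1 passed for ECs against Kupffer cells, with a log2 fold change of -0.13 in ECs and 1.51 in Kupffer cells, and no other gene of these lists did. In ECs the median log2 fold change was -0.21 over 22 other endothelial factors tested (from -2.04 to 0.44), -0.41 over 6 relatives (2 above 0 and 4 below), -0.06 over 14 partners (from -0.76 to 0.32) and 0.24 over 18 vascular genes (from -1.67 to 0.98). In HSCs the vascular genes had a median of -0.69 and in Kupffer cells of 0.62. The medians of the 10 endothelial markers that are not sinusoidal had the same signs there. All of these 10 markers but Ptprb are also among the 18 vascular genes, so that the shared direction is not a separate result. The vascular genes outside the marker list were not tested apart.

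For each member, the genes with the most similar profile were found by Pearson correlation of log2 CPM over the 16 libraries, which share 4 cell types, so that a high value mostly says that the cell types are ordered alike. Gata4 was most like Ephb4 (r = 0.976), a receptor of venous endothelium, and Bace2 (r = 0.975). Sox7 was most like Efnb2 (r = 0.987), the ligand of Ephb4, and Galnt18 (r = 0.987), while Sox17 was most like Exoc3l (r = 0.988) and Myct1 (r = 0.987). Myct1 was also among the 2 nearest to Erg (r = 0.983), after the endothelial guidance receptor Robo4 (r = 0.985). Fli1 was most like Dgkz (r = 0.987) and Cd38 (r = 0.987), both of which were about as high in Kupffer cells as in ECs, with 167 and 472 CPM against 206 and 503 CPM. Lyl1 was most like Irak4 (r = 0.983) and Acer3 (r = 0.979), with 60.4 and 96.6 CPM in Kupffer cells. Nr2f2 was most like Dapk2 (r = 0.981) and Tns2 (r = 0.980), which were higher in HSCs than in ECs by mean CPM. Tal1 was most like Hmga2 (r = 0.980) and Ralgapa2 (r = 0.976), Sox18 like Txndc12 (r = 0.970) and Vamp5 (r = 0.969), and Mef2c like Jmjd6 (r = 0.990).

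RefSeq windows before the transcription start (GRCm38.p6) were at hand for Erg, Tal1, Lyl1, Nr2f2 and Mef2c, with 10 starts in all, and the 250 bases before each start were searched on both strands for the core letters that members of the network bind. The ETS core GGAAG was found before 8 of the 10 starts, where 64.1% of 32851 windows hold it. The GATA letters AGATAA were found before 2 of 10 (9.99% of all windows) and the E-box CAGNTG before 3 of 10 (44.8% of all windows). The SOX letters ACAATG were found before 1 of 10 (10.7% of all windows) and the nuclear receptor half-site AGGTCA before 3 of 10 (14.0% of all windows), and matches that overlap were each counted. The 2 windows with GATA letters are shown 5′ to 3′, with GATA, ETS and E-box matches in capitals. A match is a description of the letters and not a site.
Tal1, chr4:115056176-115056425 (forward strand): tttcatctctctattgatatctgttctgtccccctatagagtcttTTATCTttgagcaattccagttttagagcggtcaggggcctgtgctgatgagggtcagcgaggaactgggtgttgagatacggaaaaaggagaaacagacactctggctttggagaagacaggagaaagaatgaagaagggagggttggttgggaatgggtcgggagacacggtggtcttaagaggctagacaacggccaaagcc
Erg, chr16:95459349-95459598 (reverse strand): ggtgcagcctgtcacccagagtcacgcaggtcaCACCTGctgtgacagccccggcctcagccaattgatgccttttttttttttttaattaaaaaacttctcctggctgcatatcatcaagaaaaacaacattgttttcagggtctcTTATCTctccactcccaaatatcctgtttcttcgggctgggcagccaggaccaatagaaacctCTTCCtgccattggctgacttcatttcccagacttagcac
The window of Tal1 holds 1 GATA match and no ETS or E-box match, and that of Erg, which lies inside the gene before the start of a shorter transcript, holds 1 match of each of these 3 kinds. The 3 windows of Mef2c held between 1 and 2 ETS matches and no GATA match.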

How the data were processed

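RNA-seq counts per gene were analysed for 16 mouse liver libraries, 4 each of ECs, HSCs, Kupffer cells and hepatocytes, with 2 per label. Per the submitters' processing notes, the authors used Trimmomatic 0.32, HISAT2 2.1.0, HTSeq 0.9.1 and edgeR with GRCm38. The deposited counts are whole reads per gene, not normalized, and the files held no other values used here. The library preparation is described in 2 ways (Smart-seq2 in the series text, a stranded TruSeq kit in the sample labels), and the strand setting of HTSeq is not given in the sources used here. The 5 counter rows were left out. Reads outside genes, the content of 1 of these rows, made up 2.75% to 22.9% of the reads on genes and outside genes together. Totals on genes were 12872706 to 15690506.

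Groups came from the labels. Python 3.11.15 and R 4.3.3 were used. Differences were tested with edgeR 4.0.16 (quasi-likelihood test, TMM, filterByExpr, Benjamini-Hochberg adjustment over all genes tested), by cell type for the labels and over 16 libraries for cell types and interactions. DESeq2 1.42.0, other scalings and filters, and leaving out each library were alternatives. The edgeR steps were tested on simulated data. Sequences came from GENCODE M21 transcripts and RefSeq. Windows were given for 5 of 10 members, and 98.9% of identifiers were in GENCODE M21.

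The members and gene lists were chosen with earlier results of these data known. Named were the 10 members, Zeb2, the 3 genes of each list with the highest mean CPM in ECs, any list gene past the threshold between labels, and the 2 genes most like each member, among genes of at least 1 CPM on average, with a prior count of 2 for log2 CPM. Markers of other cell types are given only where they stand beside a result. A result under this rule is not reported here.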

Additional observations from a re-analysis of the deposited data

How the results depend on the processing

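No paired analysis was made, since the labels do not say which libraries came from 1 liver. The replicate numbers differ between all groups and do not settle this. A pairing of cell types within a liver, if there was one, was left out of the tests. In the 4 comparisons of labels, 0 members passed the threshold under every alternative. The number of all genes past it was less stable: in ECs 305 became 983 with DESeq2, 190.0 with plain library totals, 1259 with no filter, 489 with at least 10 counts in every library and 0 with hepatocyte-enriched genes left out, and from 3 (without the library labelled KO 46) to 688 (without WT 34) when 1 library was left out, with 58 without KO 6. From 0 it became 408 with DESeq2, 663 with no filter and 178 with all 16 libraries in one fit in HSCs, 72 and 159 with DESeq2 and no filter in Kupffer cells, and 32 and 227 in hepatocytes. Leaving out 1 library gave 0 to 12 in Kupffer cells and 0 to 55 in hepatocytes.

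Between cell types, at least 10 counts in every library left 4 members to test, of which 4 passed for ECs against Kupffer cells and 4 against hepatocytes, and 3 in each of the other comparisons. Plain library totals raised HSCs against hepatocytes from 5 to 9. Kupffer cells against hepatocytes went from 6 to 7 with DESeq2 and with RLE scaling, where Erg was added, to 8 with no filter and to 9 with plain library totals. DESeq2 called 1 interaction, Gata4 in ECs against Kupffer cells. In the libraries labelled WT alone, Sox17 and Sox7 did not pass for Kupffer cells against hepatocytes (adjusted p = 0.446 and 0.441), nor did Lyl1 for HSCs against hepatocytes (0.0963). The first 2 calls were also lost on leaving out 1 library (4 libraries for Sox17 and 3 for Sox7), with adjusted p of at most 0.0638 and 0.0682.

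Signs turned as follows, none past the threshold but Gata4 with plain library totals. Plain library totals gave 0.23 for Nr2f2 (ECs against HSCs), 0.74 for Tal1 (HSCs against hepatocytes) and 0.87 for Gata4 (Kupffer cells against hepatocytes), which was 0.0795 with no filter and 0.0213 with at least 10 counts. The libraries labelled WT alone gave 0.0392 for Nr2f2, 0.43 for Tal1 and, for HSCs against Kupffer cells, 0.32 for Sox17, 0.36 for Erg and 0.56 for Sox7. Leaving out 1 library, the label effect spanned 0 in ECs for Gata4 (-0.42 to 0.29), Lyl1 (-0.35 to 0.46) and Sox7 (-0.70 to 0.14), in HSCs for Gata4 (-0.44 to 0.34), Lyl1 (-0.93 to 0.76), Erg (-2.67 to 0.48) and Sox18 (-0.44 to 2.09), in Kupffer cells for Fli1 (-0.49 to 0.58) and Nr2f2 (-0.76 to 1.09), and in hepatocytes for Sox17 (-6.91 to 0.72), Zeb2 (-1.91 to 0.34), Sox18 (-0.0495 to 1.40) and Sox7 (-1.19 to 1.14). The same held between cell types for Fli1 in ECs against Kupffer cells (-0.0138 to 0.53), Tal1 in HSCs against Kupffer cells (-3.16 to 1.22), Tal1 (-2.27 to 1.91), Erg (-0.0208 to 1.48) and Sox18 (-0.23 to 0.93) in HSCs against hepatocytes, and Gata4 (-0.24 to 0.25) and Tal1 (-1.25 to 2.82) in Kupffer cells against hepatocytes. Of 668 log2 fold changes under the other settings, 640 kept their direction and side of the threshold. The causes were not tested. With 2 libraries per group, levels near 3 counts limit what was detectable for Tal1 outside ECs and for Erg and Lyl1 in hepatocytes.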
